A study of Homo sapiens with 4 samples.

Results

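Complement genes of THP‐1 sublines are described here: 10 genes for complement components (C3, CFB, C1QA, C1QB, CFP), anaphylatoxin receptors (C3AR1, C5AR1) and membrane regulators (CD55, CD46, CD59). The members were the probe sets that the platform annotation lists for one of these symbols alone. This gave 19 probe sets for 10 genes, of 41097 probe sets for 19775 genes in all. THP‐1 cells come from a human monocytic leukemia. Their RNA was hybridized to 4 GeneChip U133 Plus 2.0 arrays, 1 per condition: nonstimulated Siglec‐14,NTHi[−] and stimulated Siglec‐14,NTHi[+], and likewise Siglec‐5,NTHi[−] with Siglec‐5,NTHi[+]. The Siglec‐14/THP‐1 subline expresses Siglec‐14, and serves the study as a model of monocytes of people with SIGLEC14. The Siglec‐5/THP‐1 subline expresses Siglec‐5, and stands for monocytes of people who lack SIGLEC14. All cells were kept for 6 h in a serum-free macrophage medium, NTHi[+] with heat-killed nontypeable Haemophilus influenzae strain 2019 at 100 bacteria per cell and NTHi[−] without it. The promoters that drive the introduced genes, and whether each subline is 1 clone, are not given in the sources used here.

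Complement is a cascade of proteins that tags microbes for uptake, draws in leukocytes and pierces membranes. C1q starts the classical pathway, factor B forms the alternative pathway convertase that cleaves C3, and properdin stabilizes that convertase. Cleavage of C3 and C5 releases the anaphylatoxins C3a and C5a, which act on the receptors C3aR and C5aR1 of myeloid cells. Host cells carry CD55, which hastens the decay of convertases, CD46, a cofactor for the cleavage of C3b and C4b, and CD59, which blocks the membrane attack complex. The liver makes most plasma complement, and monocytes and macrophages also make some components.

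Signals are intensities on a linear scale. The floor, 16.02, is the median over every signal of the 4 arrays, and a gene enters a comparison if it reaches the floor on either array. A fold against a signal below the floor is computed against the floor and is a lower bound. A gene is represented by its probe set with the highest mean signal. Each condition has 1 array, so no error between replicates can be given, a ratio of a pair of arrays has no test, and the number of arrays limits the precision. Of the 10 genes, 8 reached the floor on at least 1 array and 6 on all 4 arrays (C3, CFP, C3AR1, CD55, CD46 and CD59). CFB and C1QA stayed below it on all arrays.

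The sum of signals ran from 12735500 to 14047100 over the 4 arrays, and the median from 15.1 to 16.5. SIGLEC14 had no probe set listed for it alone. The SIGLEC5 probe set had signals of 21.3 without and 19.5 with NTHi in Siglec‐14/THP‐1, against 4.13 without and 21.6 with NTHi in Siglec‐5/THP‐1. These lie near or below the floor and do not separate the sublines, so the subline labels could not be checked on the introduced genes and every difference between the lines rests on them. Of 8 measured markers of monocytic cells, 5 or 6 reached the floor on each array, with lysozyme (LYZ) between 3036 and 3430. CD14 and FCGR1A, which mark mature monocytes, stayed below the floor on all 4 arrays.

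The plot of signals by array shows 3 kinds of pattern among the genes. C3, CFP, C3AR1 and C5AR1 were higher in Siglec‐14/THP‐1, with or without NTHi, and C3, C3AR1 and CFP also had higher signals with NTHi in both sublines. CD55 was higher in Siglec‐14/THP‐1 and nearly the same with and without NTHi. CD46 and CD59 had similar signals on all 4 arrays.

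**Figure D1:**
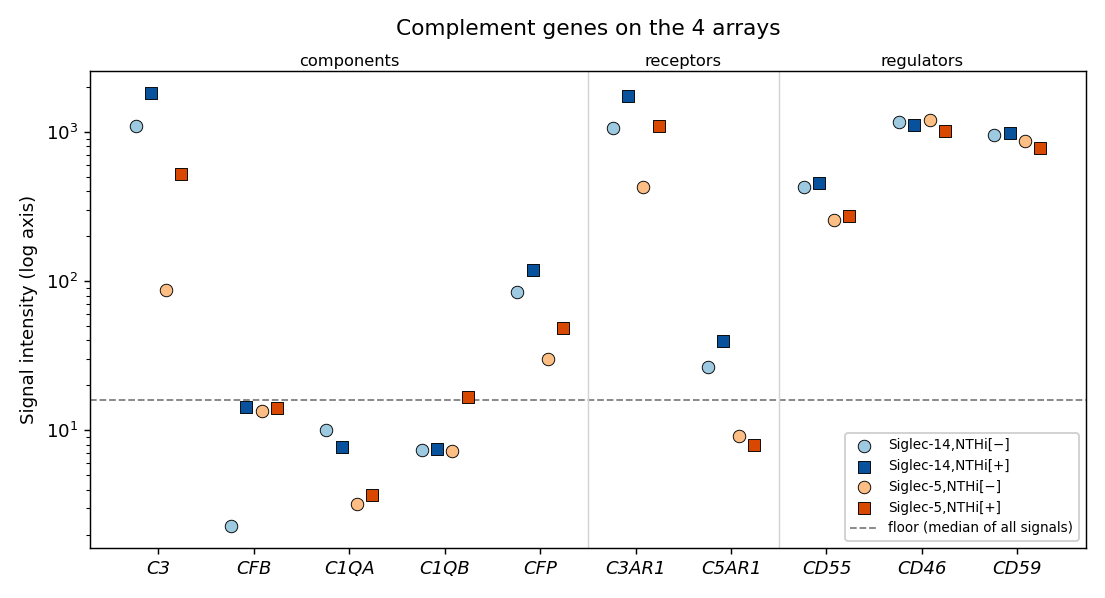
Signal intensity (log axis) of each of the 10 complement genes on its probe set with the highest mean signal, 1 point per array, with circles for NTHi[−] and squares for NTHi[+]. The dashed line is the floor of 16.02, below which all 4 points of CFB and C1QA lie, and C3 has the widest range, from 86.9 to 1823.

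The sequences upstream of the transcription start are shown for 3 genes whose signals were higher in Siglec‐14/THP‐1 and which have 1 entry in the RefSeq table used. They let the 2 receptor genes and CD55 be compared by the motifs they hold. Of the 10 genes, 9 have an entry. The entry for C3 is missing. Each line gives the 250 bases before the start, 5′ to 3′ on the strand of the gene, in build GRCh38.p14. The capitals mark matches to 4 motifs, searched on both strands: AP-1 (TGANTCA), C/EBP (TTNCNNAA), the PU box (GAGGAA) and the NF-κB consensus.
C3AR1, chr12:8066360-8066609, minus strand: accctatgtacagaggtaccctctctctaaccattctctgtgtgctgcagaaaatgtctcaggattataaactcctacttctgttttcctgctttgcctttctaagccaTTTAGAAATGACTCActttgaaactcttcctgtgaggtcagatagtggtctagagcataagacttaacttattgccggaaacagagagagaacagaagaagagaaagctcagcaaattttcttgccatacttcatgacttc
C5AR1, chr19:47309611-47309860, plus strand: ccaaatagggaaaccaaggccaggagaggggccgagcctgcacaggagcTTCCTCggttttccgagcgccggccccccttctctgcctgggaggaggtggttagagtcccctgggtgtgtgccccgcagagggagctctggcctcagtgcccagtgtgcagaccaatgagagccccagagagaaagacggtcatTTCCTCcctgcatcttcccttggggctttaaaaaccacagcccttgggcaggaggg
CD55, chr1:207321428-207321677, plus strand: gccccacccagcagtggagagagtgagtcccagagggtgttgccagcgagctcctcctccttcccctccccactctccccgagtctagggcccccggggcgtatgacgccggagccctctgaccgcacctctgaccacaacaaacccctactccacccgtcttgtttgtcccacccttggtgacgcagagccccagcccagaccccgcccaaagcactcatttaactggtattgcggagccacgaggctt

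The C3AR1 window holds an AP-1 match that begins 133 bases before the start. A C/EBP match, read on the other strand, begins 141 bases before it and adjoins the AP-1 match. The C5AR1 window holds the PU box on the other strand, beginning 201 and 56 bases before the start. The CD55 window holds none of the 4 motifs. Of 35116 such windows in the table, 6.57% hold the AP-1 motif, 33.2% the C/EBP motif, 23.6% the PU box and 5.21% the NF-κB consensus. A match is a run of letters and not a measured site of binding.

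C3, the component on which all complement pathways converge, had the highest fold in each of the 4 comparisons among the members at the floor on all 4 arrays. Its signals were 1089.85 without and 1823 with NTHi in Siglec‐14/THP‐1, against 86.9 without and 523 with NTHi in Siglec‐5/THP‐1. Both Siglec‐14 arrays lay above both Siglec‐5 arrays, so that stimulated Siglec‐5/THP‐1 stayed below nonstimulated Siglec‐14/THP‐1. C3 was 12.5-fold higher in Siglec‐14/THP‐1 than in Siglec‐5/THP‐1 without NTHi, rank 17 from the top among 13284 genes tested, and 3.49-fold higher with NTHi, rank 146 of 13099. With NTHi it was 6.02-fold higher in Siglec‐5/THP‐1, rank 10 of 13014, and 1.67-fold higher in Siglec‐14/THP‐1, rank 366 of 13210. The log2 response in Siglec‐14/THP‐1 minus that in Siglec‐5/THP‐1 was -1.85, while the rise in signal was larger there, 733 against 436. Whether the sublines respond differently could not be tested with 1 array per condition.

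C3AR1 encodes the receptor for C3a. Its signals were 1062 without and 1727 with NTHi in Siglec‐14/THP‐1, against 425 without and 1091 with NTHi in Siglec‐5/THP‐1. The highest was in stimulated Siglec‐14/THP‐1 and the lowest in nonstimulated Siglec‐5/THP‐1, and the other two arrays had similar signals. With NTHi, C3AR1 was 2.57-fold higher in Siglec‐5/THP‐1, and 1.63-fold in the other subline. The rises in signal were nearly equal, 666 and 665. Between the lines it was 2.50-fold higher in Siglec‐14/THP‐1 without NTHi and 1.58-fold higher with NTHi. C3 and its receptor, and also CFP, had the larger NTHi ratio in Siglec‐5/THP‐1. For any gene, this by itself fixes that the line ratio is larger without NTHi, since both orderings compare the same signals. They are a single observation, and the array of Siglec‐5,NTHi[−] is the lowest for these genes.

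CFP encodes properdin, which lengthens the life of the alternative pathway convertase. Its signals were 84.9 without and 118 with NTHi in Siglec‐14/THP‐1, against 30.1 without and 48.4 with NTHi in Siglec‐5/THP‐1. As for C3, both Siglec‐14 arrays lay above both Siglec‐5 arrays. CFP was 2.82-fold higher in Siglec‐14/THP‐1 without NTHi and 2.44-fold higher with NTHi. The ratios with NTHi were 1.39 in Siglec‐14/THP‐1 and 1.61 in Siglec‐5/THP‐1.

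C5AR1, the receptor for C5a, reached the floor in Siglec‐14/THP‐1 and not in Siglec‐5/THP‐1. Its signals were 26.5 without and 39.6 with NTHi in Siglec‐14/THP‐1, against 9.15 without and 7.94 with NTHi in Siglec‐5/THP‐1. Against the floor it was at least 1.65-fold higher in Siglec‐14/THP‐1 without NTHi and at least 2.47-fold higher with NTHi. The ratio with NTHi in Siglec‐14/THP‐1 was 1.496. Since the gene passed the floor only through the subline in which it was high, its place above the floor is part of the same difference. The floor is not a call of expression. CD79A and PAX5, B cell markers, had signals of 28.7 to 37.4 and 69.8 to 109 over the arrays, and HBB, an erythroid marker, 27.4 to 43.7. The epithelial markers EPCAM, KRT8 and KRT18 had 64.2 to 88.3, 81.4 to 113 and 56.2 to 86.0. The signals of CFP, from 30.1 to 118, overlap with those of these markers. MS4A1, ALAS2, KRT19 and CDH1, other markers of these cell types, stayed below the floor.

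The remaining components were dim. CFB encodes factor B, the protease precursor of the alternative pathway. Its brighter probe set had signals of 2.28 without and 14.4 with NTHi in Siglec‐14/THP‐1, against 13.5 without and 14.1 with NTHi in Siglec‐5/THP‐1, and the other ran from 2.44 to 3.48. The low value in Siglec‐14,NTHi[−] stands on the brighter probe set alone, and no fold is given below the floor. C1QA and C1QB encode chains of C1q. C1QA had signals of 10.1 and 7.76 in Siglec‐14/THP‐1 without and with NTHi, and 3.19 and 3.70 in Siglec‐5/THP‐1, all below the floor. C1QB had 7.38 and 7.54 in Siglec‐14/THP‐1, 7.22 in Siglec‐5,NTHi[−] and 16.6 in Siglec‐5,NTHi[+], just above the floor, which bounds its ratios there at 1.04-fold or more. For these 3 genes no difference was detectable at these signals.

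CD55 encodes decay-accelerating factor. On its brightest probe set the signals were 426 without and 452 with NTHi in Siglec‐14/THP‐1, against 255 without and 274 with NTHi in Siglec‐5/THP‐1. The Siglec‐14 arrays were the higher pair, with ratios of 1.67 without NTHi and 1.65 with NTHi. The 3 probe sets of the gene gave line ratios from 1.19 to 1.94 without NTHi and from 1.49 to 1.73 with NTHi. All 6 ratios were above 1. The ratio with NTHi was 1.02 to 1.13 in Siglec‐14/THP‐1 and 0.781 to 1.33 in Siglec‐5/THP‐1 over the same probe sets, which disagreed on its direction in the latter, and 1 of 3 scalings turned the former on the brightest probe set.

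CD46, the membrane cofactor protein, had signals of 1158 without and 1103 with NTHi in Siglec‐14/THP‐1, against 1204 without and 1016 with NTHi in Siglec‐5/THP‐1 on its brightest probe set. Its 3 probe sets gave line ratios of 0.962 to 1.03 without NTHi and 0.908 to 1.09 with NTHi. The ratios with NTHi were 0.952 to 1.21 in Siglec‐14/THP‐1 and 0.843 to 1.14 in Siglec‐5/THP‐1. Probe sets of CD46 fell on both sides of 1 in every comparison, and 2 of the 3 scalings tried turned the line ratio without NTHi around.

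CD59, the inhibitor of the membrane attack complex, had signals of 947 without and 981 with NTHi in Siglec‐14/THP‐1, against 872 without and 779 with NTHi in Siglec‐5/THP‐1 on its brightest probe set. It has 5 probe sets, of which 1 reached the floor only in Siglec‐14,NTHi[−], at 17.3. The line ratios ran from 0.954 to 1.09 without NTHi and from 0.925 to 1.26 with NTHi. Among the other probe sets, the ratios with NTHi were 1.02 to 1.21 in Siglec‐14/THP‐1, and in Siglec‐5/THP‐1 they were 0.893 to 1.33. In the other 3 comparisons CD59 had measured probe sets on both sides of 1, and on the brightest 2 scalings turned its ratio with NTHi in Siglec‐14/THP‐1 around.

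**Figure D2:**
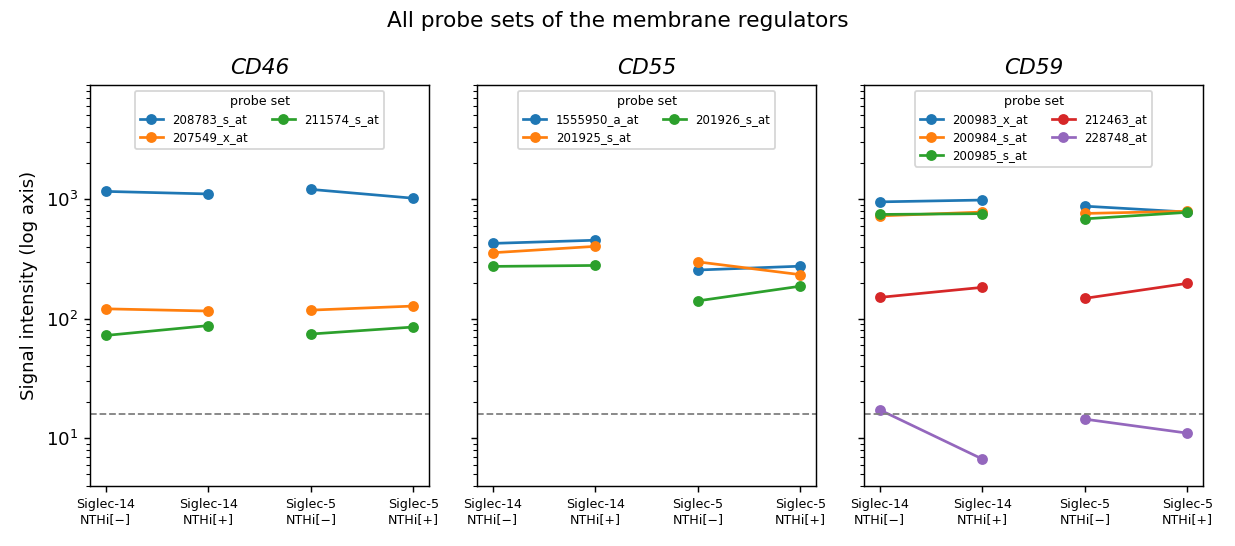
Signal intensity (log axis) of every probe set of CD46, CD55 and CD59 on the 4 arrays, 1 colour per probe set, with lines joining the NTHi[−] and NTHi[+] arrays of the same subline and the dashed line at the floor of 16.02. The 3 probe sets of CD55 are lower in Siglec‐5/THP‐1 with ratios from 1.19 to 1.94, while those of CD46 stay within ratios of 0.908 to 1.09 between the lines.

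The study used a 3-fold difference as its criterion. On the signals as deposited, C3 was the 1 member past it in each of 3 comparisons, and 0 members passed with NTHi in Siglec‐14/THP‐1. Of 7 members tested with NTHi in Siglec‐5/THP‐1, 1 was higher, beside 0.261% of all genes, and 0 were lower, beside 0.0384%. Between the lines, 1 of 7 was higher in Siglec‐14/THP‐1 without NTHi and 1 of 8 with NTHi, beside 1.21% and 1.63% of all genes. None was lower in either, beside 0.113% and 0.0382%. With each array scaled to the same trimmed mean, CFP also passed without NTHi, at 3.11-fold. For NTHi in Siglec‐14/THP‐1, 7 members were tested, and of all genes 0.189% were higher and 0.0681% lower. At 2-fold, C3 and C3AR1 were higher with NTHi in Siglec‐5/THP‐1 (0.876% of all genes), and 0 members in Siglec‐14/THP‐1 (1.17%). C3, CFP and C3AR1 were higher in Siglec‐14/THP‐1 without NTHi (3.19%), and C3 and CFP with NTHi (4.36%, a share that includes genes at bounds). C5AR1 was at least 2.47-fold higher with NTHi. It is not counted here, since it reached the floor only through its Siglec‐14 arrays. No member was 2-fold lower with NTHi in Siglec‐14/THP‐1 or Siglec‐5/THP‐1 (0.621% and 0.884% of all genes), nor between the lines without or with NTHi (1.43% and 0.962%).

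The median log2 ratio of the members tested was 0.48 with NTHi in Siglec‐14/THP‐1, where that of all genes was 0.08, and 0.11 in Siglec‐5/THP‐1, where that of all genes was -0.11. Between the lines it was 0.74 without NTHi against -0.12 for all genes, and 0.69 with NTHi against 0.06. Between the lines, C5AR1 and C1QB enter these medians at their bounds. C5AR1 reached the floor only through its Siglec‐14 arrays, so its line ratios could only lie on the higher side. The medians of all genes show an offset between arrays that is small beside the ratios of C3, CFP and C3AR1 between the lines.

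**Figure D3:**
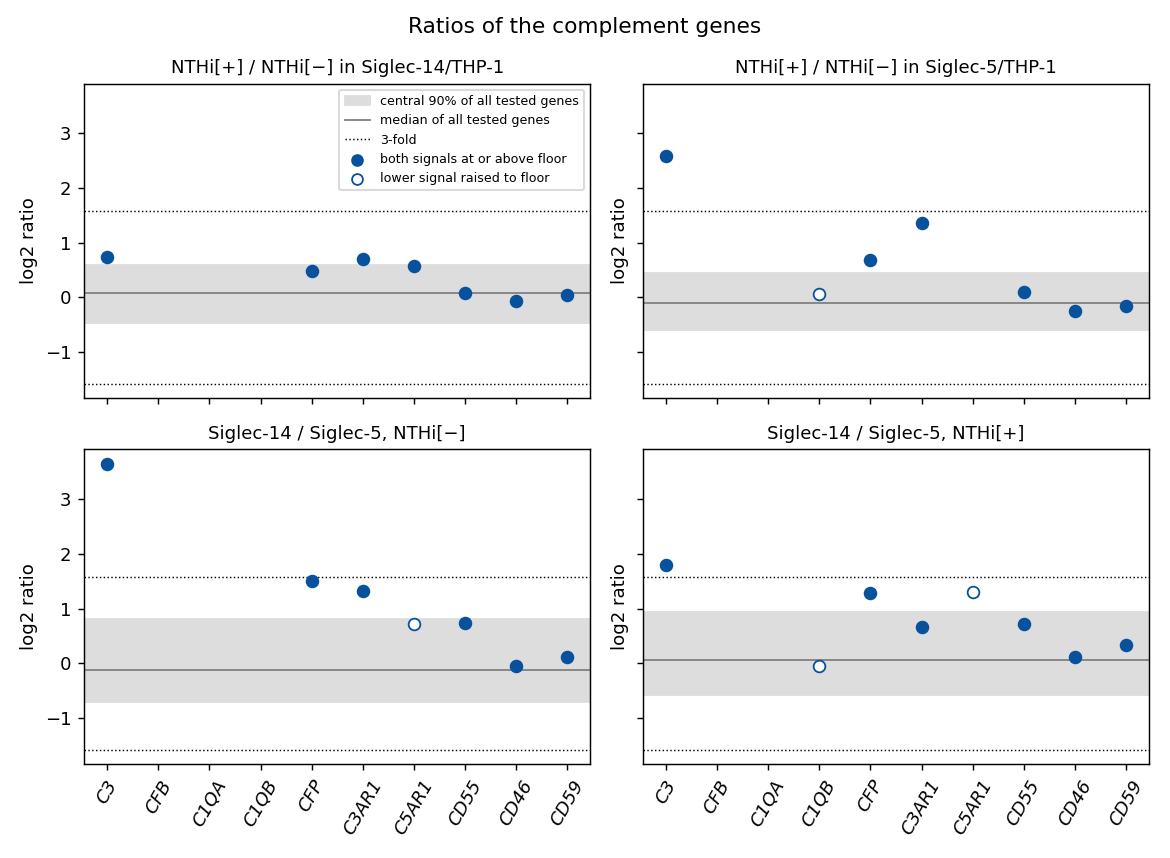
Log2 signal ratio (y axis) of each complement gene in the 4 comparisons, with filled points for genes with both signals at or above the floor and open points where the lower signal was raised to it. Genes with both signals below the floor have no point. The grey band spans the 5th to 95th percentile of all genes tested and the dotted lines mark 3-fold, past which C3 lies in 3 panels.

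An additive model of subline and NTHi was fitted by limma to all 4 arrays. Its NTHi term is the log2 ratio averaged over the lines, and its line term that averaged over the conditions. A gene that responds in a single line can pass, so passing does not show a response in both lines. C3 and C3AR1 rose with NTHi and 0 members fell, of 8 tested, beside 0.99% of all genes that rose and 0.294% that fell. The NTHi term on the log2 scale was 1.67 for C3 (standard error 0.15, adjusted p = 2.11e-24 by limma) and 1.03 for C3AR1 (standard error 0.15, adjusted p = 6.11e-09 by limma). CFP had a term of 0.58 (standard error 0.24, adjusted p = 0.477 by limma) and did not pass.

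C3, CFP, C3AR1 and CD55 were higher in Siglec‐14/THP‐1 in this fit, among the 8 members tested, beside 6.22% of all genes tested. C5AR1 is not counted here, and 0 members were lower, beside 4.95%. The line term was 2.73 for C3 (standard error 0.15, adjusted p = 7.28e-68 by limma), 1.39 for CFP (standard error 0.24, adjusted p = 3.22e-07) and 0.99 for C3AR1 (standard error 0.15, adjusted p = 5.58e-09). For CD55 it was 0.73 (standard error 0.16, adjusted p = 0.000144 by limma). The term of C5AR1, 1.93, depends on signals below the floor and is given with no test, since the gene entered the fit only through its Siglec‐14 arrays. CD46 and CD59 had line terms of 0.03 and 0.23 with standard errors of 0.15, and adjusted p-values by limma of 0.957 and 0.462.

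These p-values rest on limma's intensity trend, which takes the variance from probe sets of similar signal and leaves out the spread of the gene's own response between the lines. Without the trend 0 members passed either term: the adjusted p was 0.829 for the NTHi term of C3 and 0.325 for its line term, with a standard error of 0.55. With cell line left out of the fit, 0 members passed the NTHi term.

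**Figure D4:**
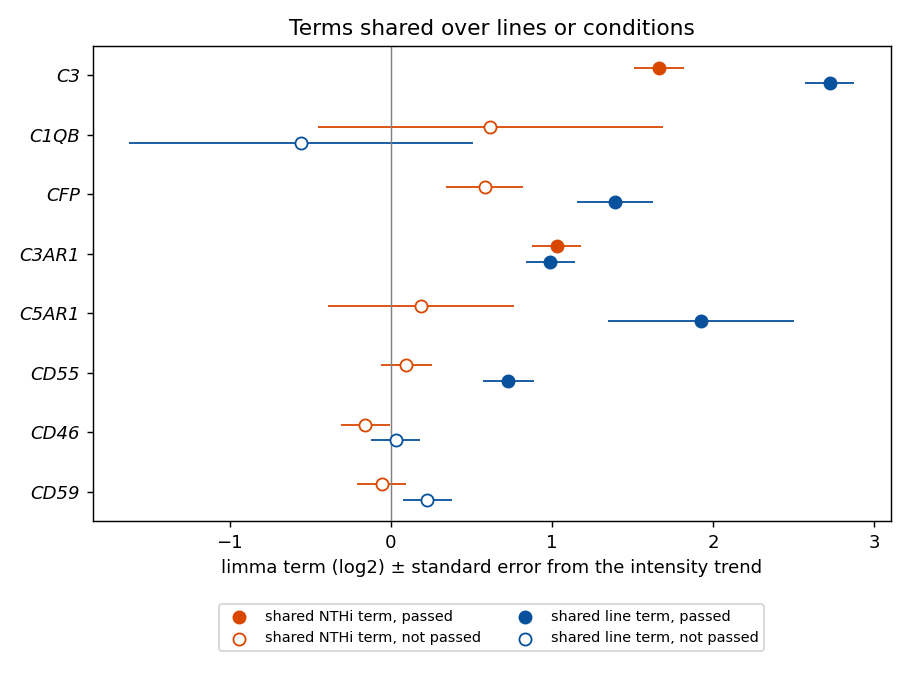
Terms of the additive limma fit (x axis, log2) for the 8 complement genes tested, in orange for NTHi and in blue for Siglec‐14/THP‐1 over Siglec‐5/THP‐1, with bars of 1 standard error from the intensity trend and filled points for an adjusted p under 0.05. C3 has the largest NTHi and line terms, 1.67 and 2.73, and the points of C1QB and C5AR1 include signals below the floor.

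Of 43 further complement genes on a fixed list, 36 had a probe set of their own, 19 reached the floor on at least 1 array and 10 on all 4. In the terminal pathway only C5 reached the floor, of 7 measured genes. Among the measured classical and lectin pathway genes 6 of 11 did, and among soluble regulators 3 of 7. No gene of the list passed the NTHi term of the limma fit, of 19 tested, and 2 had an unadjusted p under 0.05 for it (C2 and CLU), beside 936 of 13935 genes. C2, the classical pathway serine protease, was measured at 21.6 without and 26.7 with NTHi in Siglec‐14/THP‐1, against 12.4 and 34.3 in Siglec‐5/THP‐1. With NTHi it was at least 2.14-fold higher in the latter. CLU, clusterin, an inhibitor of the terminal complex, went the other way on its brightest probe set. It went from 30.5 to 9.79 with NTHi in Siglec‐14/THP‐1 and from 19.9 to 9.91 in the other subline. Both signals with NTHi lie below the floor, so these falls are at least 1.91-fold and at least 1.24-fold. The NTHi term of CLU depends on those signals. The other CLU probe set that reached the floor was at least 1.41-fold lower with NTHi in Siglec‐14/THP‐1. In Siglec‐5/THP‐1 it was at least 1.06-fold higher. CFD, or factor D, which cleaves factor B, was measured at 582 and 697 in the Siglec‐14 line, against 937 and 733 in Siglec‐5/THP‐1, and its line term of -0.38 did not pass (adjusted p = 0.106 by limma).

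THBD, ITGAM and ITGAX passed the line term, of 19 tested, and 0 genes of the list were lower, beside 6.22% and 4.95% of all genes. THBD encodes thrombomodulin, which also restrains complement on cell surfaces. Without and with NTHi it measured 466 and 449.8 in Siglec‐14/THP‐1, against 150.2 and 161 in Siglec‐5/THP‐1, a 3.10-fold difference without NTHi and 2.79-fold with NTHi. It was the 1 gene of the list past 3-fold in any comparison, and its 3 probe sets had the same direction. ITGAM, the α chain of complement receptor 3, had signals of 290.1 and 353 against 198 and 167. ITGAX, the α chain of complement receptor 4, had 34.9 and 44.2 against 21.3 and 14.8. The last of these lies below the floor, so the line ratio of ITGAX with NTHi is at least 2.76. Its line term depends on that signal and passed narrowly (adjusted p = 0.0409 by limma). A second, dimmer probe set of ITGAM had 12.99 and 18.5 against 23.9 and 17.2. It was at least 1.49-fold lower in Siglec‐14/THP‐1 without NTHi, and 1.08-fold higher with NTHi. ITGB2, their common β chain, had 1368 and 1988 against 1404 and 1211 and did not pass.

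The genes with the pattern closest to C3 over the 4 arrays were IL4I1, BCL2A1 and LTB. Closeness was the Euclidean distance between log2 signals centred on each gene's mean, among 11015 genes that reached the floor on every array and lay outside the complement lists. IL4I1, an amino acid oxidase of myeloid cells, was at a distance of 0.39, with signals of 346 and 742 in Siglec‐14/THP‐1, against 26.5 and 212. BCL2A1, a survival protein of the BCL2 family, was at 0.83 and LTB, lymphotoxin β, at 0.88. CFB lay below the floor on every array and was not ranked in this way.

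Some markers of other cell types moved with the line difference in C3, CFP, C3AR1, C5AR1 and CD55. Among 5 hepatocyte markers, of interest because the liver makes complement, the summed signal was 118 without and 222 with NTHi in Siglec‐14/THP‐1, against 22.9 and 43.1. SERPINA1, which monocytes also express, made up 84.6 and 177 of it against 2.95 and 3.99, while ALB, APOB and TTR stayed below the floor on all arrays. APOA1 was at 10.6 and 17.6 in Siglec‐14/THP‐1, against 3.33 and 20.002. Among 3 endothelial markers the sums were 2315 and 2381 against 777 and 633, nearly all from PECAM1, which monocytes also carry, and CDH5 and VWF stayed below the floor. Among 4 fibroblast markers they were 289.2 and 289.1 against 166 and 154, mostly from COL1A1 (266 and 257 against 141 and 132). COL1A2 and COL3A1 lay below the floor, and DCN was higher in Siglec‐5/THP‐1, at 15.5 and 13.5 against 21.3 and 16.6. The 8 monocytic markers summed to 4782 and 4912 in Siglec‐14/THP‐1, against 6141 and 5662. MPO, a granule enzyme of immature myeloid cells, had 1152 and 1365 against 2408 and 2186. Other monocytic markers lay the other way: TYROBP had 329 and 376 against 205 and 186, CSF1R 39.0 and 53.0 against 21.9 and 40.3, and CD4 21.2 and 31.3 against 15.3 and 19.7. The part of these differences in the complement results was not tested. In RNA from whole cultures, fewer cells expressing a gene and less RNA per cell cannot be told apart.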

How the data were processed

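Signals were made by the authors with GCOS, the scanner maker's software, version not given in the sources used here, and state that signals were standardized on the cumulative signal of all probes. The deposited values are signal intensities on a linear scale, and their sums differ between arrays. With NTHi in Siglec‐14/THP‐1 they give 4.55-fold for CCL20, where the study lists a lower fold. For IL1B the study's fold lies between those of the probe sets, 4.07 and 3.11. For CXCL8 it is that of the brighter probe set, 3.27. The deposited values thus do not give the study's folds for CCL20 and IL1B, and how they relate to its standardized signals was not tested. The deposited values were used without rescaling. The platform annotation lists 1801 probe sets for several genes and 11777 for none, and neither was used for a gene. The floor was the median of all signals. Alternative floors were the 25th (4.09) and 75th (105) percentiles and none. Other alternatives were thresholds of 2-fold and 4-fold, 3 scalings (same median, quantile, and the mean after trimming 2% at each end), a pseudocount of 16 and other uses of the probe sets of a gene.

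The fit used limma 3.58.1 (R 4.3.3) on log2 signals of the 32017 probe sets whose highest signal was at the floor or above, with eBayes and an intensity trend, 1 residual degree of freedom and Benjamini-Hochberg adjustment over all probe sets, passing at 0.05. It was tested on simulated data. Ranks, medians and shares of all genes are over genes, 1 probe set each. Python 3.11.15 with pandas 2.3.3, numpy 2.4.6 and matplotlib 3.10.9 did the rest. The members and lists were chosen with earlier results of these data known. The text names all members, other complement genes past 3-fold or a term of the fit, and the 3 genes nearest to C3. C2, CFD, ITGB2, CLU and the terminal pathway gene C5 were named after their values were seen. Promoter sequences come from RefSeq (GRCh38.p14).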

Additional observations from a re-analysis of the deposited data

How the results depend on the processing

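The line and NTHi ratios of C3, CFP and C3AR1 kept their direction under every floor, scaling, pseudocount and probe set choice that tested them. Below the floor used, C3 was not the highest in every comparison: C5AR1 reached 4.99 between the lines with NTHi with the floor at the 25th percentile, and CFB 6.31 with NTHi in Siglec‐14/THP‐1 without a floor. For C3, the line ratio ranged from 10.4 to 13.8 without NTHi and from 3.23 to 3.49 with NTHi, and the ratio with NTHi in Siglec‐5/THP‐1 from 4.98 to 6.47. The count of members past the threshold became 2 at 2-fold with NTHi in Siglec‐5/THP‐1. Between the lines it became 3 at 2-fold without NTHi and 3 with NTHi, where 0 passed at 4-fold. The latter 3 include C5AR1, which reached the floor only through its Siglec‐14 arrays. With the trimmed mean scaling CFP joined C3 without NTHi, for a count of 2, at 3.11-fold. Lower floors brought in dim signals. With NTHi in Siglec‐14/THP‐1 the count was 1 with the floor at the 25th percentile and 1 without a floor, from CFB. Between the lines without NTHi it was 2 and 3 in the same order (C3 and CFB, then also C1QA), with CFB lower in Siglec‐14/THP‐1, and with NTHi it was 2 and 2 (C3 and C5AR1). With the floor at the 75th percentile, the line ratio of CFP with NTHi was 1.13, by construction. C1QB, just above the floor in Siglec‐5,NTHi[+], had a ratio with NTHi there of 2.31 without a floor.

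Without limma's trend, 0 members passed the NTHi term and 0 the line term, and of all genes 0 passed either. At an unadjusted p under 0.05 there were 749 and 1661 genes, with 1 and 5 members, the latter including C5AR1. With cell line left out 0 members passed the NTHi term, and 0 genes (289 at an unadjusted p under 0.05). The remaining alternatives left C3 and C3AR1 past the NTHi term. They left C3, CFP, C3AR1 and CD55 past the line term, and CD59 joined these genes under quantile and trimmed mean scaling. C5AR1 is not counted here, since its Siglec‐5 signals lie below the floor. Of all genes, 179 passed the NTHi term, and 362, 330 and 756 with median, quantile and trimmed mean scaling. For the line term 1557 passed, 867 of them higher, and the counts were 3236 (1032 higher), 3108 (1536 higher) and 3689 (1880 higher). The cause of these changes was not tested. No paired analysis was possible because each condition has 1 array and so no replicates to pair, and the additive fit already compares NTHi within each subline.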
